A study of Mus musculus with 24 samples.

Results

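Matrix metalloproteinases (MMPs) and their tissue inhibitors (TIMPs) were examined in livers of mice fed a high-fat diet or a control diet. The 10 genes were chosen by name: the inhibitors Timp1, Timp2 and Timp3, and the proteinases Mmp2, Mmp8, Mmp9, Mmp13, Mmp14, Mmp15 and Mmp19. They are 10 of the 56205 genes in the count table, all 10 matched a gene ID through its symbol, and all 10 passed the filter on low counts (at least 1 count in at least 12 libraries), which 17913 genes passed. The table holds 24 libraries of poly(A) RNA from whole liver, 12 from C57BL/6J mice kept on the high-fat diet for 20 weeks and 12 from mice kept as long on the control diet. The high-fat diet held palm oil, fructose and cholesterol. Male and female mice aged 8 to 10 weeks at the start were used, with 6 mice per diet and sex. No group carried a transgene or a deletion. The labels number the libraries of each diet from 1 to 12 and give no sex for a library.

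MMPs are zinc-dependent endopeptidases that are made as inactive proenzymes and, once activated, cut collagens and other proteins of the extracellular matrix. TIMPs bind the active site of MMPs and block it, and TIMP2 also helps MMP14 to activate the MMP2 proenzyme at the cell surface. In liver fibrosis, stellate cells and macrophages are known sources of both families, and the balance between them is studied as a measure of matrix turnover. These data are RNA levels, so they say nothing of proenzyme activation or of enzyme activity.

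Total counts ranged from 14468418 to 22112552 per control library and from 16490817 to 21213070 per high-fat library. Levels are given as counts-per-million scaled by the trimmed mean of M values (TMM), written CPM, and 3 counts corresponded to between 0.118 and 0.305 CPM. Among the lists of cell type markers, hepatocyte markers had the highest summed levels, as the labelled tissue implies, at 42877 to 143645 CPM. Several libraries stood apart. High-fat replicate 3 had a summed level of 322 CPM for 12 neutrophil markers, against a median of 9.32 CPM on that diet and a highest control of 7.98 CPM. High-fat replicate 9 had the highest summed level of 8 cholangiocyte markers, 953 CPM against a median of 237 CPM. Control replicates 6 and 11 were the 2 control libraries with the highest Timp1 and Mmp13. Control replicate 10 had the fewest counts and the lowest TMM factor (0.679) of all libraries. It also held the lowest control levels of Timp2, Timp3 and Mmp14. The libraries also fell into 2 sets by Xist, the RNA that coats the inactive X chromosome in female cells. In replicates 1 to 6 of both diets Xist lay between 2664 and 6285 counts, and in replicates 7 to 12 between 0 and 3 counts. Ddx3y, a gene of the Y chromosome, had 0 counts in every library of the first set and 448 to 1016 counts in the second. Each set holds 6 libraries per diet, as many as the stated mice per diet and sex, although the labels assign no sex to a library, and values within them are given beside the pooled ones.

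Over all 24 libraries, 5 of the 10 genes rose on the high-fat diet and 0 fell. A gene counted as higher or lower when its adjusted p was 0.01 or less and its log2 fold change lay beyond 0.5 in size (edgeR's quasi-likelihood test, Benjamini-Hochberg adjustment over 17913 genes). By that rule 13.2% of all tested genes were called higher and 4.99% lower. The genes that rose were Timp1, Timp2, Mmp2, Mmp8 and Mmp13, while Timp3, Mmp9, Mmp14, Mmp15 and Mmp19 did not pass. The median log2 fold change of the 10 genes was 1.28, beside -0.03 over all genes tested. In none of the 10 genes did every high-fat library exceed every control, a pattern seen in 1.48% of genes tested. In whole liver, a change in RNA per cell and a change in the number of cells that make it cannot be told apart.

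**Figure D1:**
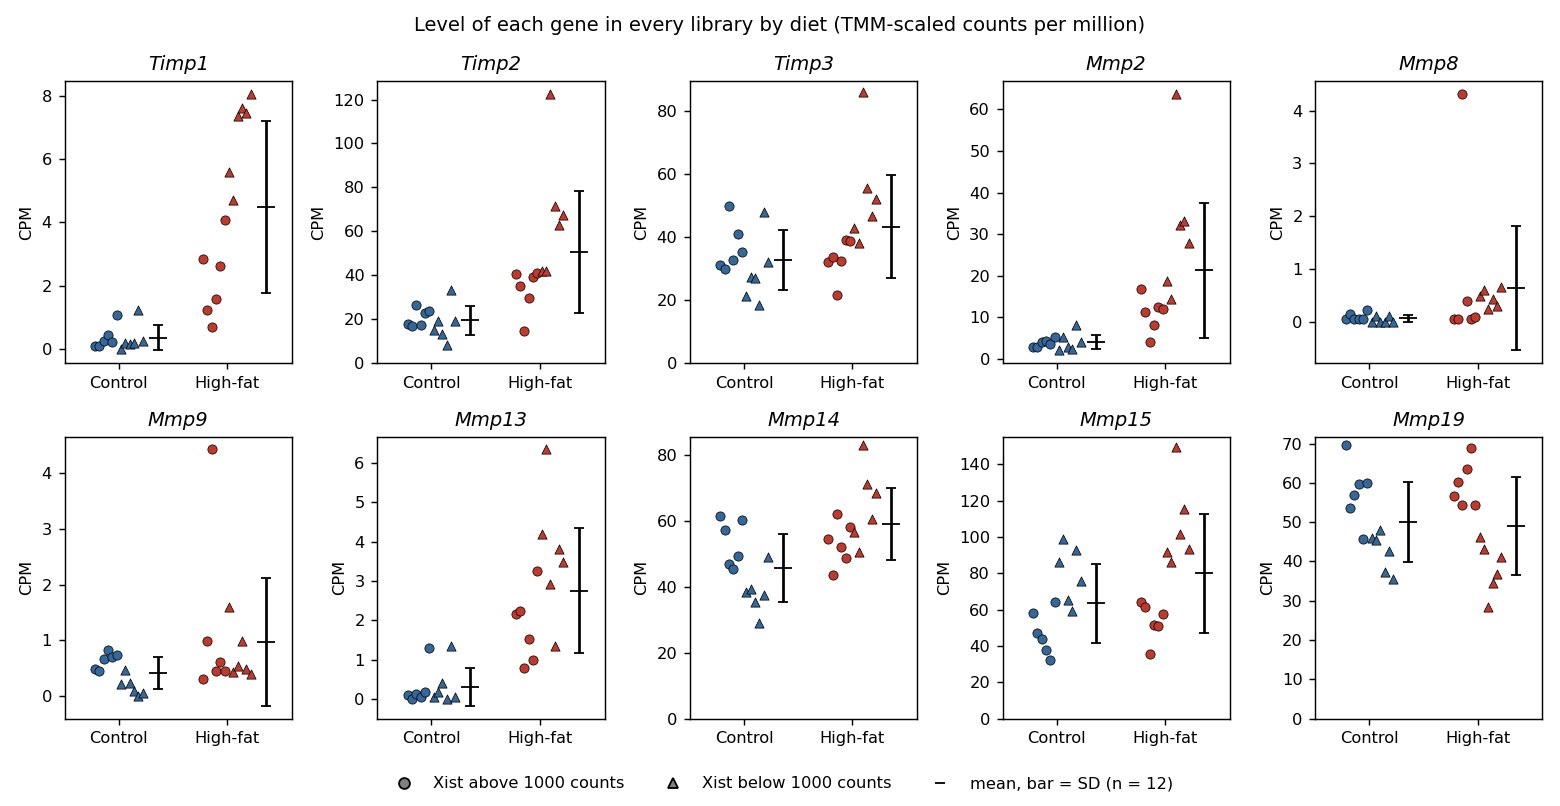
Level of each of the 10 genes in every library, in TMM-scaled CPM (linear axis from 0, or just below it where values reach 0), for 12 control (blue) and 12 high-fat (red) libraries. Circles and triangles mark the 2 Xist sets, and the bar shows mean and SD. Timp1 on the high-fat diet spanned 0.693 to 8.06 CPM against 0 to 1.25 CPM in controls, and 1 high-fat library held the highest Mmp8 (4.32 CPM) and Mmp9 (4.42 CPM).

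For the inhibitor Timp1 and the collagenase Mmp13, which had among the largest rises, the sequence just upstream of the annotated start is shown to place them in the genome and to show motif matches there. Timp1 lies on the plus strand of chromosome X at chrX:20870166-20874735 and Mmp13 on the plus strand at chr9:7272514-7283331 (GRCm38, GENCODE M21, both protein coding). The RefSeq windows of 250 bases upstream (GRCm38.p6) are chrX:20869916-20870165 for Timp1 and chr9:7272264-7272513 for Mmp13. Capitals mark a match to tgagtca or its reverse complement tgactca, the sequence bound by AP-1, the Fos and Jun dimer known to drive several MMP genes.
Timp1: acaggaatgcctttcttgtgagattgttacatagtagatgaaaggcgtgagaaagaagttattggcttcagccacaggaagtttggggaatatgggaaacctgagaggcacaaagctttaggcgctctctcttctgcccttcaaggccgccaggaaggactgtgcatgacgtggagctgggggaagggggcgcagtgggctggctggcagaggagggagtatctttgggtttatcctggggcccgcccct
Mmp13: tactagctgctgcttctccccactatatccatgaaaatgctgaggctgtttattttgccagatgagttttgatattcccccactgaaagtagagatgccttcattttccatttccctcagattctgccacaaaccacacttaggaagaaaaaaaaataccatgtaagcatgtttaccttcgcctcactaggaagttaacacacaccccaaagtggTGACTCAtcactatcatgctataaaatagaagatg

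The Mmp13 window held 1 AP-1 match, whose first base lies 35 bases before the start, and the Timp1 window held 0. Of 32851 RefSeq windows of this length, 4.46% held such a match on either strand. The ETS core aggaag or cttcct, on either strand, matched 2 times in each of these windows, first bases 175 and 99 bases before the start in Timp1 and 109 and 62 in Mmp13, and it was present in 29.5% of all windows. Neither motif's matches overlapped the other's. Windows were found for 7 of the 10 genes. Among the other 5, Timp3, Mmp8 and Mmp14 held 1 ETS match each, Timp2 and Mmp15 held neither motif, and an AP-1 match was found in Mmp13 alone. A match describes the letters in this window, not binding.

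Timp1 (ENSMUSG00000001131), a secreted inhibitor of most MMPs that is induced in injured liver, was close to the floor of detection in control liver and rose most among the 10 genes. On the control diet its level ran from 0 to 1.25 CPM with a median of 0.219 CPM, and 6 of the 12 control libraries held 3 counts or fewer. On the high-fat diet it ran from 0.693 to 8.06 CPM with a median of 4.39 CPM. In 10 of 12 high-fat libraries Timp1 exceeded every control, and the groups overlapped only where the lower high-fat libraries met control replicates 6 (1.06 CPM) and 11 (1.25 CPM). Mean levels were 4.49 ± 2.7 CPM (SD, n = 12) and 0.353 ± 0.391 CPM (SD, n = 12). The log2 fold change was 3.62 (SE 0.48, edgeR adjusted p = 3.61e-06), and a two-sided permutation test on log2(CPM + 1) gave p = 2e-05, the smallest its resamples can give. Without control replicates 6 and 11 together, a choice made after seeing the values, the log2 fold change was 4.52.

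Timp2 (ENSMUSG00000017466), on the minus strand at chr11:118301069-118355740, encodes the inhibitor that also takes part in activating the MMP2 proenzyme. Its control libraries ran from 8.25 to 33.4 CPM (median 18.3 CPM), and its high-fat libraries from 14.5 to 123 CPM (median 41.4 CPM). Again 10 of 12 high-fat libraries lay above every control, with high-fat replicate 3 lowest and replicate 9 highest on that diet. Means were 50.7 ± 27.9 CPM and 19.4 ± 6.52 CPM (SD, n = 12 each), a log2 fold change of 1.38 (SE 0.25, edgeR adjusted p = 9.24e-05).

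Timp3 (ENSMUSG00000020044), at chr10:86300372-86349506 on the plus strand, encodes the inhibitor that stays bound to the matrix. Its high-fat libraries ran from 21.7 to 86.1 CPM (median 38.9 CPM) and its control libraries from 18.5 to 49.7 CPM (median 31.6 CPM), with wide overlap. The log2 fold change of 0.40 (SE 0.18) did not pass (edgeR adjusted p = 0.0755). Without strand in the counting, reads of Timp3 could not be told from those of the antisense gene Syn3, whose exons overlap it and whose mean level was 5.24 CPM. Whether the counting used strand is not given in the sources used here.

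Mmp2 (ENSMUSG00000031740), at chr8:92827291-92853420 on the plus strand, encodes gelatinase A, a product of activated stellate cells and other fibroblasts that cuts denatured collagen and type IV collagen. Levels ran from 2.05 to 8.10 CPM in controls (median 3.79 CPM) and from 3.997 to 63.7 CPM on the high-fat diet (median 15.7 CPM). All high-fat libraries but replicate 3 lay above every control, and the highest value was that of high-fat replicate 9. Means were 21.3 ± 16.3 CPM and 3.95 ± 1.68 CPM (SD, n = 12 each). Its log2 fold change was 2.42 (SE 0.34, edgeR adjusted p = 6.15e-06).

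Mmp9 (ENSMUSG00000017737), at chr2:164940780-164955850 on the plus strand, encodes the other gelatinase, stored by neutrophils and made by macrophages. Levels were low, from 0 to 0.820 CPM in controls (median 0.458 CPM) and from 0.317 to 4.42 CPM on the high-fat diet (median 0.519 CPM), and 4 of 12 high-fat libraries exceeded every control. The log2 fold change of 1.19 (SE 0.47) did not pass the call rule (edgeR adjusted p = 0.0483). Without high-fat replicate 3, which held the highest value, it was 0.64. In the low-Xist set, which does not hold that library, it was 1.98 (edgeR adjusted p = 0.0177) and did not pass. Medians there were 0.519 CPM on the high-fat diet and 0.159 CPM in controls, against 0.532 and 0.689 CPM in the high-Xist set.

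The 2 collagenases both rose from levels near the floor. Mmp13 (ENSMUSG00000050578) encodes the interstitial collagenase of rodents, able to cut intact fibrillar collagen. In counts it ran from 0 to 28 in controls (median 2.5) and from 15 to 117 on the high-fat diet (median 54). In CPM these were 0 to 1.36 (median 0.121) and 0.799 to 6.34 (median 2.57). For Mmp13, 9 of 12 high-fat libraries exceeded all controls, and control replicates 6 (1.29 CPM) and 11 (1.36 CPM) were the only controls above 1 CPM. Its log2 fold change was 3.04 (SE 0.53, edgeR adjusted p = 7.2e-05), and 4.45 without those 2 controls together. Because 9 controls held 3 counts or fewer, the size of the fold rests on few reads.

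Mmp8 (ENSMUSG00000005800), on the plus strand at chr9:7558456-7568485, encodes the collagenase of neutrophil granules. Its counts ran from 0 to 5 in controls (median 1) and from 1 to 81 on the high-fat diet (median 7), or 0 to 0.231 CPM against 0.0519 to 4.32 CPM. High-fat replicate 3 alone reached 4.32 CPM, and 4 high-fat libraries held 3 counts or fewer, as did 11 controls. The log2 fold change was 3.02 (SE 0.70, edgeR adjusted p = 0.00141). It was 1.997 without high-fat replicate 3 and was still called. It was not called with limma-voom (2.02, adjusted p = 0.01005) or with the replicate number as a block (2.33, edgeR adjusted p = 0.0175), and over the alternatives fitted to both Xist sets the adjusted p ran from 8.2e-05 to 0.0175. In that library the summed neutrophil markers were at their highest, and 10 of 11 tested neutrophil markers were called higher on the high-fat diet with it and 3 of 11 without it (median log2 fold change 4.18 and 1.42). Their part in the Mmp8 and Mmp9 values was not tested beyond leaving that library out.

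The 3 proteinases with the highest levels changed little in the pooled comparison. Mmp14 (ENSMUSG00000000957), at chr14:54431612-54445364 on the plus strand, encodes the membrane-anchored enzyme that activates the MMP2 proenzyme. It ran from 29.1 to 61.6 CPM in controls (median 46.3 CPM) and from 43.6 to 83.0 CPM on the high-fat diet (median 57.5 CPM). Of the high-fat libraries 4 lay above every control and 5 controls lay below every high-fat library, and the log2 fold change was 0.37 (SE 0.12, edgeR adjusted p = 0.0145), which did not pass.

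Mmp15 (ENSMUSG00000031790), at chr8:95352268-95375080 on the plus strand, encodes a second membrane-type MMP. Its levels were 32.0 to 99.1 CPM in controls (median 61.5 CPM) and 35.5 to 149 CPM on the high-fat diet (median 75.1 CPM), with a log2 fold change of 0.33 (SE 0.21, edgeR adjusted p = 0.211). Mmp19 (ENSMUSG00000025355), at chr10:128790910-128800824 on the plus strand, encodes a secreted MMP that acts on basement membrane proteins. Levels of Mmp19 ran from 35.5 to 69.7 CPM in controls (median 47.1 CPM) and from 28.5 to 68.8 CPM on the high-fat diet (median 50.2 CPM), so that no high-fat library exceeded all controls. The log2 fold change was -0.03 (SE 0.13, edgeR adjusted p = 0.87), and it was 0.22 where libraries were scaled by their totals alone. Under that scaling the median over all genes tested was 0.26 in place of -0.03, and Timp3 (0.71) and Mmp14 (0.66) were called higher. Exons of the antisense gene Tmem198b, at a mean of 7.85 CPM, overlap Mmp19.

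Values were next read within each of the 2 Xist sets. In the 6 against 6 libraries with low Xist, 7 of the 10 genes were called higher, where 14.3% of genes tested were. The 7 were the 5 genes of the pooled comparison with Timp3 (log2 fold change 0.90, edgeR adjusted p = 0.00712) and Mmp14 (0.79, edgeR adjusted p = 0.000557). In the 6 against 6 with high Xist only Timp1 (2.55, edgeR adjusted p = 0.00597) and Mmp2 (1.49, edgeR adjusted p = 0.00228) were called, where 2.82% of genes tested were called higher. Timp2 (0.68, adjusted p = 0.036), Mmp13 (2.57, adjusted p = 0.0175) and Mmp8 (2.96, adjusted p = 0.0791) did not pass edgeR's test there. In that set Mmp8 had 81 counts in high-fat replicate 3 and 1 to 8 in the other high-fat libraries, against 1 to 5 in controls. Its medians there were 0.0780 CPM on the high-fat and 0.0567 CPM on the control diet, so its fold of 2.96 rests on 1 library.

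In the low-Xist set, Timp1 ran from 0 to 1.25 CPM in controls (median 0.190 CPM) and from 4.72 to 8.06 CPM on the high-fat diet (median 7.41 CPM), with no overlap (two-sided exact permutation p = 0.00216, the smallest that 6 against 6 allows). Its high-fat range in the high-Xist set was 0.693 to 4.06 CPM (median 2.11 CPM), over controls of 0.0983 to 1.06 CPM. Timp2, Mmp2, Mmp8 and Mmp14 also had no overlap in the low-Xist set, so 5 of 10 genes did, where 12.6% of genes tested did. For the membrane-anchored Mmp14, low-Xist levels were 29.1 to 49.0 CPM in controls (median 38.0 CPM) and 50.7 to 83.0 CPM on the high-fat diet (median 64.7 CPM). In the high-Xist set the same gene ran from 45.5 to 61.6 CPM in controls (median 53.4 CPM) and from 43.6 to 62.2 CPM on the high-fat diet (median 53.4 CPM), and the 2 diets overlapped almost entirely.

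Whether the diet difference itself differed between the sets was tested as an interaction in edgeR. For Mmp14 the difference between the 2 log2 fold changes was 0.78 (SE 0.18, edgeR adjusted p = 0.00541), the only one of the 10 genes at an adjusted p of at most 0.01, a level reached by 4.06% of genes tested. With 1 library left out the difference ran from 0.72 to 0.87 and its edgeR adjusted p from 0.00232 to 0.0122, above 0.01 without high-fat replicate 4, 5 or 10 or control replicate 6 or 9. Timp3 (1.03, adjusted p = 0.0226) and Timp2 (1.23, adjusted p = 0.0456) passed 0.05 but not 0.01 in edgeR's test, as did 10.2% of genes tested counting those under 0.01. For Mmp2 (1.45, adjusted p = 0.0599) and Timp1 (1.70, adjusted p = 0.191) the larger fold in the low-Xist set did not pass edgeR's test. The labels give no sex, litter, cage or processing date per library, so sex and anything else that goes with these sets cannot be told apart.

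**Figure D2:**
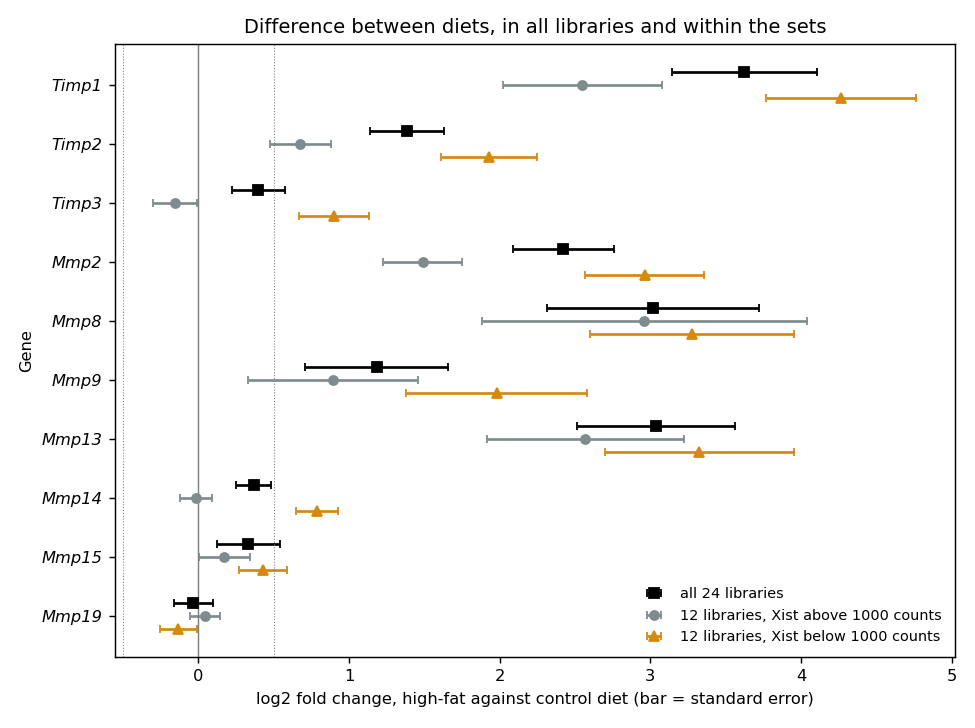
Log2 fold change of each gene, high-fat against control diet, with its standard error, in all 24 libraries (squares), in the 12 with Xist above 1000 counts (circles) and in the 12 below (triangles). Dotted lines mark the fold threshold of 0.5 on the log2 scale. Mmp14 sat at -0.01 in one set and 0.79 in the other. Mmp13 (2.57 and 3.32) lay about as far apart, with wider error bars. Timp1 (2.55 and 4.26), Mmp2 (1.49 and 2.96) and Timp2 (0.68 and 1.93) lay farther apart. So did Mmp9 (0.89 and 1.98) and Timp3 (-0.15 and 0.90), and in each the error bars were wider than for Mmp14. Mmp8 sat at 2.96 and 3.27, also with wide error bars, and its high-Xist value includes high-fat replicate 3 with 81 counts.

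Levels of different genes were compared per kilobase of the longest annotated transcript. On the control diet the order was Mmp19 (14.7 ± 2.97 CPM per kilobase, SD, n = 12), Mmp14 (14.2 ± 3.19), Mmp15 (12.4 ± 4.20), Timp3 (6.94 ± 2.03), Timp2 (5.23 ± 1.76), Mmp2 (1.28 ± 0.544), Timp1 (0.399 ± 0.443), Mmp9 (0.130 ± 0.0898), Mmp13 (0.119 ± 0.181) and Mmp8 (0.0282 ± 0.0297). Neighbours differed by more than the larger of their SDs only between Mmp15 and Timp3, Timp2 and Mmp2, and Mmp2 and Timp1. On the high-fat diet Mmp14 (18.3 ± 3.38), Mmp15 (15.6 ± 6.34), Mmp19 (14.4 ± 3.69), Timp2 (13.7 ± 7.51), Timp3 (9.16 ± 3.46), Mmp2 (6.91 ± 5.29) and Timp1 (5.08 ± 3.06) followed each other by less than that. Mmp13 (1.03 ± 0.595) lay below Timp1 and above Mmp9 (0.307 ± 0.361) by more than the larger SD, and Mmp8 (0.265 ± 0.485) did not differ from Mmp9 by that measure. With the median in place of the longest transcript length, Mmp14 stood at 58.9 CPM per kilobase on the control and 76.0 on the high-fat diet, first on both, so the order depends on a length that the count table does not give.

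The ratio of the 3 summed TIMP levels to the 7 summed MMP levels was worked out after the values were seen and is given as a description. Both sums are per kilobase of the longest annotated transcript, and other lengths were not used. Mmp12 and the rest of the family, read below, are not in these sums. The ratio ran from 0.198 to 0.454 in controls (median 0.272) and from 0.198 to 0.700 on the high-fat diet (median 0.468). In the high-Xist set the diets overlapped widely, with 0.221 to 0.432 in controls and 0.198 to 0.472 on the high-fat diet. In the low-Xist set these were 0.198 to 0.454 and 0.465 to 0.700. The means were 0.294 ± 0.0906 and 0.471 ± 0.138 (SD, n = 12 each), and the lowest libraries of both diets met at the same ratio.

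**Figure D3:**
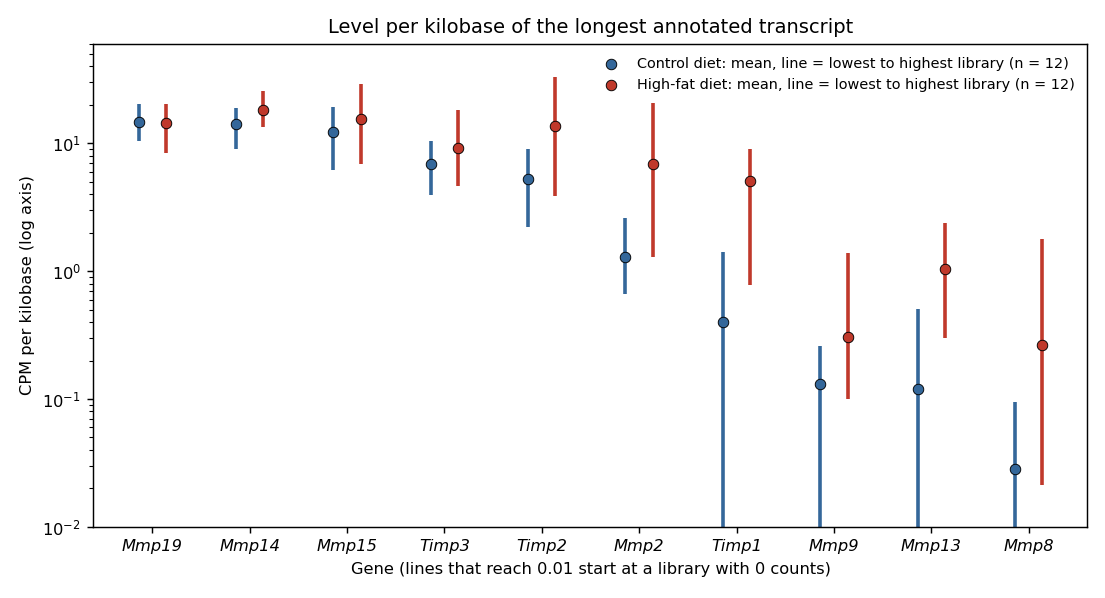
Level of each gene per kilobase of its longest annotated transcript (log axis), ordered by the control mean, with dots for the mean and lines from the lowest to the highest of 12 libraries per diet (blue control, red high-fat). Mmp19, Mmp14 and Mmp15 led on the control diet at 14.7, 14.2 and 12.4 CPM per kilobase, and Timp1 moved from 0.399 to 5.08.

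Across libraries some of the genes varied together once the mean of each diet and set was removed, over 24 libraries that share depth and tissue makeup. The largest Pearson r of log2(CPM + 1) was 0.92 between Timp2 and Timp3, followed by 0.91 between Timp2 and Mmp2 and 0.82 between Timp3 and Mmp2. Timp1 and Mmp2 had an r of 0.75. Without high-fat replicate 3 these were 0.92, 0.88, 0.79 and 0.67, over 23 libraries. The values for Mmp8 and Mmp9 moved most without that library, which was left out after seeing the data: their r with each other was 0.80 with it and -0.07 without it, that of Timp1 with Mmp9 -0.53 and -0.27, and that of Timp2 with Mmp8 -0.52 and -0.17. High-fat replicate 9 had the highest Timp2, Timp3, Mmp2, Mmp14 and Mmp15 of all libraries, and high-fat replicate 3 the lowest Timp1, Timp2, Timp3, Mmp2, Mmp13 and Mmp15 of its diet with the highest Mmp8 and Mmp9. Without these 2 libraries together the log2 fold changes of Timp2 (1.28), Mmp2 (2.24) and Timp1 (3.65) were all still called. Over the 22 libraries left, r was 0.89 for Timp2 with Timp3 and 0.84 for Timp2 with Mmp2. It was 0.71 for Timp3 with Mmp2 and 0.75 for Timp1 with Mmp2.

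Timp1 was then compared with each of the other 9 genes within each diet, with set means removed, in a family of 18 pairs and 36 tests. A single pair passed in both measures, Timp1 with Mmp2 in the 12 control libraries (Pearson r = 0.83, permutation adjusted p = 0.0101, Spearman rho = 0.81, permutation adjusted p = 0.0276), with r = 0.62 without the 2 libraries farthest in Timp1 (permutation p = 0.0359). On the high-fat diet Timp1 with Timp2 had r = 0.74 (permutation adjusted p = 0.0276) and rho = 0.74 (permutation adjusted p = 0.0546), with r = 0.65 without the 2 farthest. Timp1 with Mmp13 in controls had r = 0.90 (permutation adjusted p = 0.0546), which fell to 0.10 without the 2 farthest libraries and rests on them. With a pseudocount of 0.1 in place of 1, 0 pairs passed.

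**Figure D4:**
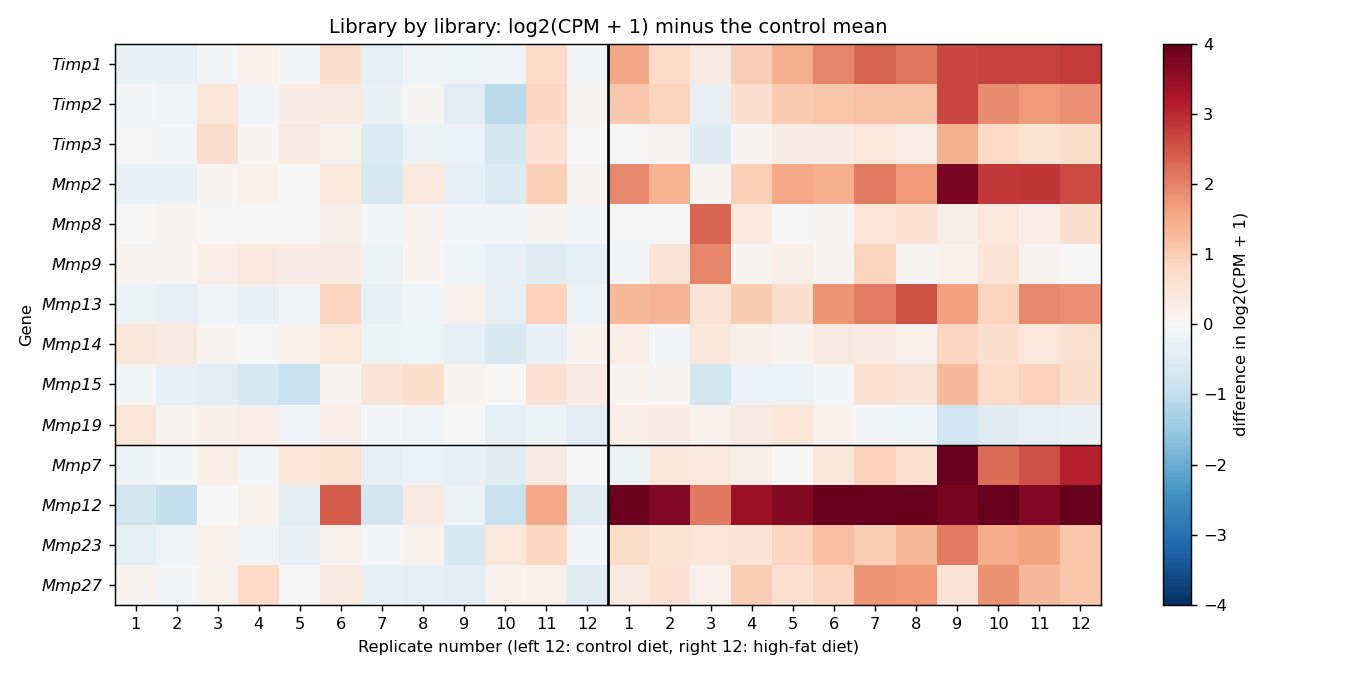
Difference of log2(CPM + 1) from the control mean for the 10 genes and, under the line, the 4 other genes of the family that were called higher, in 12 control libraries (left) and 12 high-fat libraries (right), numbered by replicate. The color scale stops at -4 and 4. High-fat replicates 7 to 12 all lay above replicates 1 to 6 for Timp1, high-fat replicate 3 stood out in Mmp8 (4.32 CPM) and Mmp9 (4.42 CPM), and control replicates 6 and 11 in Timp1, Mmp13 and Mmp12.

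The rest of the family was read from a list of 17 further MMP and TIMP genes. Of these, 10 were tested, 4 rose and 0 fell. Over the whole family of 27 genes, 20 were tested and 9 were called higher, with a median log2 fold change of 1.28. Of all genes tested 13.2% were called higher and 4.99% lower, and these shares also stand beside the counts of the lists that follow. The macrophage elastase Mmp12 had the largest fold of the family. It ran from 0.149 to 11.03 CPM in controls (median 0.783 CPM) and from 8.69 to 51.8 CPM on the high-fat diet (median 31.6 CPM). Control replicates 6 (11.03 CPM) and 11 (5.38 CPM) were its highest controls, and 11 of 12 high-fat libraries exceeded every control. Means of 32.9 ± 11.2 and 2.01 ± 3.18 CPM (SD, n = 12 each) gave a log2 fold change of 3.98 (SE 0.50, edgeR adjusted p = 2.04e-06), and 5.38 without those 2 controls together.

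Matrilysin, Mmp7, an epithelial MMP, ran from 0 to 1.01 CPM in controls (median 0.337 CPM) and from 0.211 to 28.0 CPM on the high-fat diet (median 1.02 CPM), its highest value being in high-fat replicate 9, the library with the highest cholangiocyte markers. Its log2 fold change of 3.47 (SE 0.72, edgeR adjusted p = 0.000482) was 0.13 in the high-Xist and 5.02 in the low-Xist set, and 2.68 without high-fat replicate 9. Mmp23 (1.49, SE 0.24) and Mmp27 (1.73, SE 0.32) also rose, with levels of 5.13 ± 2.29 and 2.71 ± 1.49 CPM on the high-fat diet (SD, n = 12). Mmp1a, Mmp1b and Mmp20 had 0 counts in all 24 libraries, which allows a level of up to 0.118 to 0.305 CPM in a library, and Timp4 did not pass the filter on low counts.

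Genes listed for a link to MMP activation or inhibition moved in both directions. Of 14 tested genes in a list of MMP proenzyme activators and related proteins, 4 rose and 3 fell (median log2 fold change -0.06). The list is broad, and not every gene in it encodes an enzyme that cuts MMPs. The plasminogen activators Plat (3.17, SE 0.46) and Plau (1.82, SE 0.25) and the urokinase receptor Plaur (2.07, SE 0.30) rose, Plaur without overlap between the diets. The call of neutrophil elastase, Elane, at 4.18 (SE 1.03) rested on high-fat replicate 3, and without it the value was 1.36 (SE 0.55, edgeR adjusted p = 0.0523). Plasminogen itself, Plg, fell by 0.68 (SE 0.13), as did plasma kallikrein, Klkb1, by 0.73 (SE 0.13), and the hepatocyte growth factor activator, Hgfac, by 0.90 (SE 0.17). These 3 are made by hepatocytes. Of 10 hepatocyte markers, 7 were called lower and 0 higher (median -0.73), where 4.99% of all genes tested were called lower. Whether this bears on the 3 falls was not tested.

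In a list of 11 other genes, drawn up for inhibitors of MMPs and of plasminogen activation, 3 rose and 2 fell (median -0.40). The procollagen C-proteinase enhancer Pcolce, which is in that list though not named as an inhibitor, rose by 1.12 (SE 0.16). The membrane inhibitor of MMPs, Reck, fell by 0.73 (SE 0.12), from 5.69 ± 1.33 to 3.43 ± 0.531 CPM (SD, n = 12 each), and the plasmin inhibitor Serpinf2 by 0.61 (SE 0.14). The low-abundance inhibitor A2m was called at 2.30 (SE 0.69), with 0.122 ± 0.169 CPM in controls and 0.583 ± 0.759 CPM on the high-fat diet (SD, n = 12 each), and was not called without high-fat replicate 3 (1.77, edgeR adjusted p = 0.0311). Of 18 tested genes listed as binding partners, 7 rose and 0 fell (median 0.40). The TIMP1 receptor component Cd63 (2.87, SE 0.31) rose from 7.32 ± 4.22 to 53.5 ± 28.3 CPM (SD, n = 12 each) without overlap. Cd44 (1.53, SE 0.22), which docks MMP9 and MMP14 at the cell surface, and Lcn2 (3.11, SE 0.44), listed for a link to MMP9, also rose. The others were Cd74 (2.05, SE 0.27), the thrombospondins Thbs1 (2.01, SE 0.26) and Thbs2 (1.44, SE 0.19), and the tetraspanin Cd151 (0.53, SE 0.09).

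Of 20 matrix substrates, 19 rose and 0 fell (median 1.58). Col1a1 rose by 3.12 (SE 0.42) and Col3a1 by 2.60 (SE 0.30), the basement membrane chains Col4a1 by 1.55 (SE 0.17) and Col4a2 by 1.43 (SE 0.20) without overlap, and elastin, Eln, by 2.39 (SE 0.34). Decorin, Dcn (0.65, SE 0.13), and the laminin chain Lamc1 (0.63, SE 0.14) rose least, and the exception was fibronectin, Fn1, at -0.52 (SE 0.16, edgeR adjusted p = 0.0122), which was called lower without high-fat replicate 3 (-0.62, edgeR adjusted p = 0.00208). Of 18 tested cytokines and transcription factors known to induce MMP genes, 15 rose and 0 fell (median 1.28). Tnf (2.09, SE 0.34), Tgfb1 (1.29, SE 0.14) and the AP-1 subunits Jun (1.27, SE 0.20) and Fos (1.16, SE 0.33) were among them, while Junb (0.22), Jund (0.31) and Ets1 (0.36) did not pass.

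Cell type markers moved with these genes, and their part in the MMP and TIMP values was not tested. Some lists share genes, so their counts and sums are not independent. Spp1 is among the markers of monocyte-derived macrophages and of cholangiocytes and among the matrix substrates. Col1a1, Col1a2 and Col3a1 are both activated stellate cell markers and substrates. All 10 markers of monocyte-derived macrophages were called higher (median 2.80), with summed levels of 354.9 to 1334 CPM on the high-fat diet and 93.0 to 307.6 CPM in controls, the highest control being replicate 6. Of 10 markers of activated stellate cells, 8 were called higher (median 1.74), with Acta2 (0.53, edgeR adjusted p = 0.03) and Tagln (0.47) short of the call rule. Their summed level was 234.0 to 693.7 CPM on the high-fat diet and 52.3 to 249.2 CPM in controls, highest in control replicate 11. Portal fibroblast markers were called higher in 5 of 8 and cholangiocyte markers in 6 of 8 (median 2.66, and 5 of 8 with a median of 1.73 without high-fat replicate 9). Quiescent stellate cell markers gave 2 higher and 1 lower of 10, resident macrophage markers 2 higher and 1 lower of 8, and sinusoidal endothelial markers 1 higher of 8. Dendritic cell markers were called higher in 2 of 7, and 0 of 8 T cell and 0 of 6 B cell markers were called in either direction. Control replicates 6 and 11, highest in Timp1 and Mmp13 among controls, also held the highest summed macrophage and stellate cell markers of that diet, respectively.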

How the data were processed

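The authors deposited 1 table of raw counts per Ensembl gene for 24 libraries of whole mouse liver, without normalization. The submitters' processing notes name bcl2fastq, STAR 2.7.3a and mm10. The study's methods name the exon quantification pipeline, STAR and PISCES in a passage worded for the human genome. Which program and annotation counted the mouse reads is not given in the sources used here. Columns were matched to libraries by title. Symbols, coordinates and transcript lengths came from GENCODE M21 (GRCm38), which named 51745 of 56205 gene IDs, and promoter windows from RefSeq (GRCm38.p6).

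From these counts, TMM factors and quasi-likelihood fits with the diet as sole term were made in edgeR 4.0.16 (R 4.3.3). The 17913 genes with a count in 12 or more libraries entered. A call needed an adjusted p of 0.01 or less with a log2 fold change beyond 0.5 in size. Single values used two-sided permutation tests on log2(CPM + 1) with 1e+05 resamples, or exact ones for 6 against 6. Standard errors were the size of the log2 fold change over the root of the F statistic. Nothing says that libraries came from separate mice beyond the stated 6 mice per diet and sex, so p-values measure the spread between these libraries. Pairs of libraries of a diet differed by a chi-square of at least 9.48 (high-fat) or 17.03 (control) per degree of freedom, so none was taken as a duplicate. Depth ranged from 14468418 to 22112552 counts, and floors of 3 counts cover counting error only.

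The genes named were the 10 genes, all other MMP and TIMP genes, and members of lists of activators, inhibitors, partners, substrates, inducers and cell type markers, by name examples of those past the threshold. Exceptions within a list (Fn1, Junb, Jund, Ets1, Acta2, Tagln) were named after their values were seen. The result of another gene of these lists is not reported here. The genes and lists were chosen with earlier results of these data known. In tests on simulated counts for the comparison of diets over 17913 genes, the fit recovered 76% of genes changed by 1 and 96% of those changed by 2 on the log2 scale, and called 1 unchanged gene. The changed genes were drawn from those with an expected mean of at least 10 counts, so genes as low as Mmp8 are not covered. No simulated library was made to stand apart.

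Alternatives were DESeq2 1.42.0, limma-voom (limma 3.58.1), library totals or DESeq2's size factors, 3 other filters, 2 further call rules, a block for the replicate number, the Xist set as a covariate, fits within each set, surrogate variables (sva 3.50.0), a pseudocount of 0.1, other transcript lengths and each library left out. Gene lists and correlations without high-fat replicates 3 and 9 or control replicates 6 and 11 were added after seeing the data.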

Additional observations from a re-analysis of the deposited data

Results flagged for a closer look

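The difference between the 2 diets was not the same in the 2 Xist sets of libraries for 3 genes of the family, by the interaction test of edgeR over 17913 genes (adjusted p of at most 0.01, a level reached by 4.06% of genes tested). The sets were read from Xist counts, and the labels do not name them. For Mmp14, the log2 fold change was larger in the low-Xist set by 0.78 (edgeR adjusted p = 0.00541), and it did not pass 0.01 without any 1 of 5 libraries (high-fat replicates 4, 5 or 10, control replicates 6 or 9). For Mmp7 the difference was 4.86 (edgeR adjusted p = 0.00265), and with 1 library left out the adjusted p stayed at or below 0.00833. For Mmp27 it was 2.18 (edgeR adjusted p = 0.00633), with an adjusted p of 0.00189 to 0.0137 when 1 library was left out, above 0.01 without high-fat replicate 1, 2, 5, 7 or 10 or control replicate 4, 6, 7, 8, 9 or 12.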

How the results depend on the processing

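In each of the 24 fits that left out 1 library, 5 of the 10 genes were called higher and 0 lower. With at least 10 counts required in every library only 6 of the 10 genes were tested and 2 were called higher, and 2 were called within the high-Xist set. Across the fits with 1 library left out, genes called higher numbered 2188 to 2468 and genes called lower 700 to 995. Genes called higher were 3827 with library totals alone, 1230 with at least 10 counts in every library, 509 within the high-Xist set and 3709 at an adjusted p of 0.05 with no fold threshold. Genes called lower were 226 with library totals alone, 177 within the high-Xist and 1430 within the low-Xist set, 3388 at 0.05 and 216 with a log2 fold change over 1. Mmp19 reversed to 0.22 with library totals, 0.018 with the filter of 10 counts, 0.047 within the high-Xist set and 0.015 without high-fat replicates 3 and 9 (an alternative chosen after seeing the data), and ran from -0.085 to 0.035 with 1 library left out. Within the high-Xist set Timp3 reversed to -0.15 and Mmp14 to -0.014. The number of the 10 genes that passed the interaction test was 3 at an adjusted p of 0.05 and 2 with library totals alone, both chosen after seeing the data, and 0 to 3 with 1 library left out, 3 being reached without control replicate 11. The Timp1 pairs that passed went from 1 to 0 with a pseudocount of 0.1. The cause of these changes was not tested.

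Libraries with the same number did not vary together in every case (correlation of their deviations -0.065 for number 9 and 0.184 to 0.639 for the others), so the replicate number was not taken as a pairing. With the replicate block 4 of the 10 genes were called higher, Mmp8 being lost (2.33, edgeR adjusted p = 0.0175), with 2063 genes higher and 844 lower. limma-voom also called 4, where 2325 of 17913 genes were called higher. filterByExpr tested 8 of the 10 genes, without Mmp8 and Mmp9, and called 4, where 1962 of 13567 genes were called higher. At levels near 3 counts, differences in Mmp8, Mmp9, Mmp13 and control Timp1 are limited by depth.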

Other observations

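For the 4 of the 10 genes that were called higher at a mean level of 10 counts or more, the genes whose level was most like theirs were looked up among 11173 genes averaging 50 counts or more, by the Pearson r of log2(CPM + 1) over 24 libraries with the mean of each diet and set removed. The values describe libraries that share depth and tissue makeup. They were picked as the highest among 11173 genes, which raises them even where genes are unrelated. They were not tested, and no library was left out. Mmp2 was most like Loxl1 (0.97), a lysyl oxidase that crosslinks elastin and collagen, and then Timp2 and Col6a3 (both 0.91). Timp2 was most like Col6a3, a chain of collagen VI, and Igfbp7 (both 0.95), followed by Emp1 (0.93). Timp1 was most like Ms4a7, a membrane protein of macrophages, Cpxm1 and Spp1, osteopontin (each 0.83). For Mmp13 the values were lower, with Srxn1, a redox enzyme, Cidec, a lipid droplet protein, and Abcc4, a transporter, at 0.74 each.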
